A study of Mus musculus with 12 samples.

Results

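The islet macrophage genes are a panel of 10 genes that mark macrophages or are strongly expressed by them, listed by gene symbol. Of the 10, 9 had a row in the authors' deposited comparison table of 13703 genes (Adgre1, Csf1r, Cd68, Lyz2, C1qa, C1qb, C1qc, Mrc1 and Tyrobp), and the same 9 passed the filter on low counts that left 13115 of 49315 counted genes for testing. The tenth, Trem2, was read from the count table. The libraries were made from polyadenylated RNA of freshly isolated, unsorted pancreatic islets of female wild-type NOD/ShiLtJ mice, a strain whose islets are infiltrated by leukocytes before autoimmune diabetes. Mice with normal blood glucose were 9 weeks old at the start and were treated once a week for 4 weeks, 6 libraries coming from mice given control IgG and 6 from mice given anti-CD3 antibody at 2.5 mg/kg, an antibody against the T cell receptor complex. Islets were taken 2 or 3 days after the last dose. The labels do not say whether a library is 1 mouse or a pool, nor which antibody clone was used, so a p-value here speaks only of variation among these libraries, part of which may be technical.

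Macrophages are the resident phagocytes of normal islets, where they take up granule material from beta cells, present antigen and depend on signalling through the CSF1 receptor. In NOD islets they are among the earliest leukocytes at the site of infiltration, and monocyte-derived cells join them later. The panel covers the growth factor receptor of the lineage (Csf1r), surface and lysosomal markers (Adgre1, which encodes F4/80, Mrc1, the mannose receptor CD206, and Cd68), the secreted products lysozyme M (Lyz2) and complement C1q (C1qa, C1qb and C1qc), and the lipid-sensing receptor TREM2 with its signalling adaptor (Trem2 and Tyrobp).

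The libraries held 10994337 to 19284740 counts, most of them from acinar cells of the exocrine pancreas. A set of 25 acinar genes took 68.1% to 72.0% of the counts in anti-CD3 and 32.3% to 71.3% in IgG, where IgG 6 was at 32.3% and IgG 5 at 55.0%. Islet hormone genes and Chga took 0.991% to 3.98%, so endocrine markers were present in every library. The 10 panel genes together had 29.3 to 138 CPM by total count in anti-CD3 and 34.3 to 1421 in IgG, the highest being IgG 6. In whole-islet RNA, fewer macrophages, less RNA per macrophage and a larger share of acinar RNA cannot be told apart.

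No macrophage gene passed the test between anti-CD3 and IgG islets. All 9 tested genes had negative log2 fold changes, from -1.34 for Lyz2 to -0.14 for Mrc1, with a median of -0.96 against -0.05 over all tested genes, of which 55.2% were negative. The edgeR quasi-likelihood test with Benjamini-Hochberg adjustment over all genes called 0 of the 9, against 0.0762% of all genes. DESeq2 called 3.96% of its genes, 1.22% on the lower side, and 0 of the 8 panel genes to which it gave an adjusted p, Mrc1 having none. At an unadjusted p under 0.05, edgeR gave 1 of the 9 lower (Csf1r) and 0 higher, against 8.68% and 9.68% of all genes. The number lower at that threshold was 4 without anti-CD3 1, 3 without IgG 3, 1 without IgG 4 or without anti-CD3 6, and 0 without any of the other 8 libraries. Each of these counts comes from its own fit, for which the share of all genes was not worked out. They show how the count depends on single libraries and are not results about the panel. With the acinar genes as a covariate 1 of the 9 values was negative and the median was 0.27, and with Ptprc as a covariate 6 were negative and the median was -0.26. Without IgG 6 the values of 6 of the 9 were negative, with a median of -0.32. Without IgG 5 and IgG 6, the libraries with the lowest acinar share, 5 of the 9 were negative, with a median of -0.09. In none of the 9 genes were the normalized counts of the groups separate, while over all genes CPM values without overlap were found for 0.64% on the lower and 1.2% on the higher side.

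**Figure D1:**
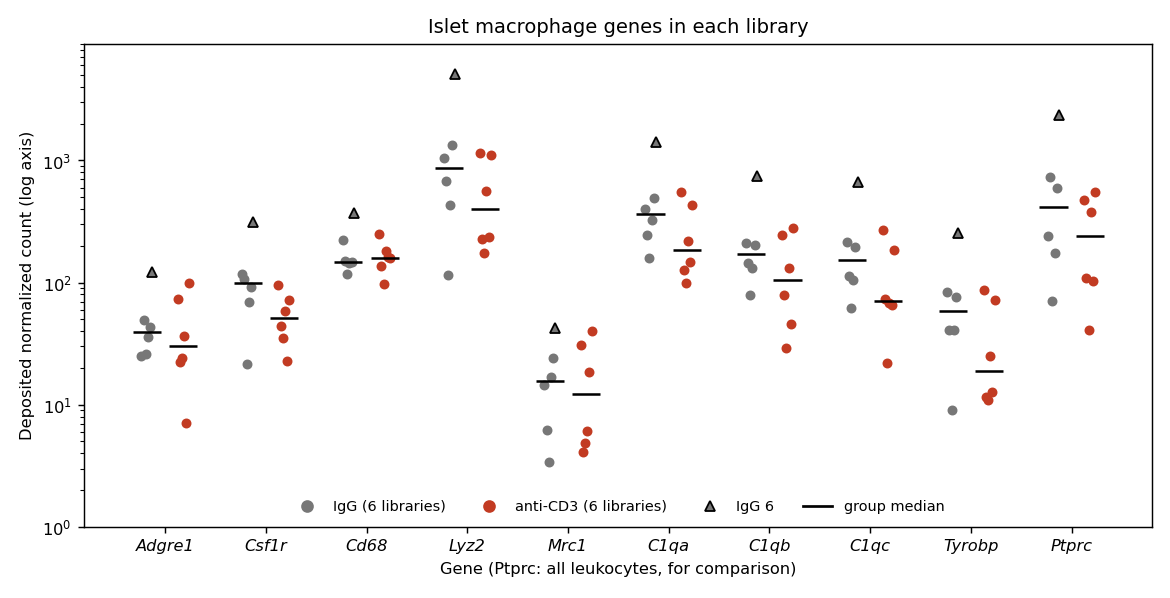
Deposited normalized count (log axis) of the 9 macrophage genes and Ptprc in each library, with IgG in grey, anti-CD3 in red and a bar at each group median. IgG 6 (triangle) is the highest of the 12 libraries in all 9 macrophage genes, and the remaining IgG libraries overlap with anti-CD3.

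One IgG library stood above the rest in every panel gene. IgG 6 was the highest of the 12 libraries for all 9 genes, from 2.49 times the median of the other IgG libraries for Cd68 to 7.60 times for Lyz2. In Ptprc, the gene of the pan-leukocyte antigen CD45, IgG 6 was at 9.63 times that median. At the other end, IgG 3 was among the lowest 2 IgG libraries for all 9 genes and the lowest of all 12 for 4 of them. Within anti-CD3, the libraries anti-CD3 1 and anti-CD3 6 were also apart from the other 4. Anti-CD3 1 was among the highest 2 of its group for 9 of 9 genes and anti-CD3 6 for 8 of 9, the exception being Cd68.

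Csf1r encodes the receptor for CSF1 and IL-34, whose signal macrophages need to survive. Its normalized count was 21.4 at the lowest, 99.0 at the median and 312 at the highest in IgG, and 22.7, 51.6 and 95.7 in anti-CD3. All 6 anti-CD3 libraries lay below the IgG median, but IgG 3 was lower than every one of them, so the groups overlapped. The log2 fold change was -1.15 ± 0.51 (SE over 6 libraries per arm; 95% interval -2.25 to -0.04; edgeR adjusted p = 0.259), or 0.451-fold. The authors' deposited table lists it at -1.14 with an adjusted p of 0.140. Without IgG 6 it was at -0.59 ± 0.40 (SE), and over the 12 omissions of 1 library it ran from -1.36 to -0.59. With the mean level of the acinar genes as a covariate it was at -0.13 ± 0.45 (SE; edgeR adjusted p = 0.950), and with Ptprc as a covariate at -0.41 ± 0.28 (SE). The gene lies on chromosome 18 from 61100598 to 61132149 (GRCm38, plus strand), and 873 bases of its exons are shared with Hmgxb3 on the other strand. Whether counting used strand is not given in the labels or notes, so reads of this stretch cannot be assigned to either gene.

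Adgre1, the gene of the adhesion receptor F4/80 that defines mouse tissue macrophages, showed a smaller value than Csf1r. It was between 25.0 and 123 normalized counts in IgG, with a median of 39.4, and between 7.10 and 99.7 in anti-CD3, with a median of 30.3. Its lowest value, in anti-CD3 5, rests on 5 counts. The log2 fold change was -0.23 ± 0.55 (SE over 6 libraries per arm; 95% interval -1.41 to 0.95; edgeR adjusted p = 0.842), and 0.27 ± 0.50 (SE) without IgG 6. Anti-CD3 1 and anti-CD3 6, at 74.0 and 99.7, were above every IgG library except IgG 6.

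Cd68 encodes a lysosomal membrane glycoprotein abundant in phagocytes, and it varied least of the 9 genes. It ran from 117 to 370 normalized counts in IgG (median 149), and in anti-CD3 from 97.1 to 251 (median 160). The anti-CD3 median was the higher of the 2 medians in this gene alone among the 9, while the log2 fold change was -0.23 ± 0.28 (SE over 6 libraries per arm; 95% interval -0.83 to 0.36; edgeR adjusted p = 0.665). Without IgG 6 it was at 0.06 ± 0.21 (SE). The coefficient of variation of Cd68 was 48.9% in IgG and 31.0% in anti-CD3, against 73.0% to 127% and 48.3% to 92.8% for the other genes.

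Mrc1 encodes the mannose receptor CD206, an endocytic lectin of resident and alternatively activated macrophages that is also made by some endothelial cells. It was the gene with the lowest level of the 9, with 3.38 to 42.5 normalized counts in IgG (median 15.6) and 4.10 to 40.4 in anti-CD3 (median 12.3). Between 3 and 107 counts stood behind each of these values. The log2 fold change was -0.14 ± 0.64 (SE over 6 libraries per arm; 95% interval -1.52 to 1.24; edgeR adjusted p = 0.925), and 0.34 ± 0.63 (SE) without IgG 6. Endothelial markers gave a summed 70.4 to 219 CPM in IgG and 66.9 to 147 in anti-CD3, with all 4 of them tested and all 4 at negative values, and their part in Mrc1 was not tested.

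Lyz2, the gene of lysozyme M, an antibacterial enzyme of macrophages and neutrophils, had the highest level of the 9 genes per length and the widest spread among the IgG libraries. Its normalized count was 116 to 5144 in IgG (median 864) and 176 to 1142 in anti-CD3 (median 401), so the highest IgG library was 44.4 times the lowest. Without IgG 6, IgG and anti-CD3 covered almost the same range, the next highest IgG library being IgG 5 at 1349. The log2 fold change of Lyz2 was -1.34 ± 0.77 (SE over 6 libraries per arm; 95% interval -3.02 to 0.33; edgeR adjusted p = 0.367), and -0.34 ± 0.68 (SE) without IgG 6. Neutrophil markers were near the limit of counting, with 1 of 5 tested (Csf3r, at -0.96) and a summed 0.230 to 2.82 CPM in IgG and 0.168 to 1.71 in anti-CD3.

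Lyz2 has a neighbouring close copy, Lyz1, the lysozyme of intestinal Paneth cells. The genes lie side by side on the minus strand of chromosome 10, Lyz2 from 117277331 to 117282321 and Lyz1 from 117287797 to 117292868 (GRCm38). Their transcripts of 1316 and 1263 bases were 92.0% identical over the alignment, with a longest shared run of 118 bases, so reads can be shared between them and the notes do not say how such reads were handled. Lyz1 did not follow Lyz2 over the libraries. Its highest normalized count was 161 in IgG 3, where Lyz2 had its lowest, followed by 68.7 in anti-CD3 6 and 35.3 in IgG 6, while the remaining libraries lay between 1.80 and 14.4.

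C1qa, C1qb and C1qc encode the A, B and C chains of C1q, the molecule that starts the classical complement pathway and that tissue macrophages secrete. They lie within 1 stretch of chromosome 4 on the minus strand, C1qb from 136880129 to 136886187, C1qc from 136889804 to 136893065 and C1qa from 136895917 to 136898803 (GRCm38). C1qa ran from 160 to 1415 normalized counts in IgG (median 365), and in anti-CD3 from 99.5 to 549 (median 183). C1qb ran from 78.8 to 751 (median 173) and from 29.1 to 278 (median 105), and C1qc from 61.9 to 669 (median 154) and from 21.8 to 267 (median 71.1), in the same order of groups. In each chain, anti-CD3 1 and anti-CD3 6 were above the IgG median, and the other 4 anti-CD3 libraries were below it.

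The 3 C1q chains had nearly the same value, 0.491-fold to 0.525-fold in anti-CD3, with intervals that include no difference. The log2 fold change was -0.96 ± 0.55 for C1qa, -0.93 ± 0.62 for C1qb and -1.03 ± 0.63 for C1qc (SE over 6 libraries per arm; edgeR, adjusted p = 0.365, 0.431 and 0.395). The 95% intervals were -2.16 to 0.23, -2.27 to 0.41 and -2.39 to 0.33. Without IgG 6 the values were -0.33, -0.21 and -0.32. Transcripts of different chains shared runs of at most 15 bases and were 48.1% to 52.6% identical, so reads of these genes are hardly exchangeable.

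The 250 bases before the RefSeq start were searched for letters bound by macrophage factors, as a description of the panel genes. Whether these letters bear on the variation between libraries was not tested. The search covered 6 panel genes with an entry in the RefSeq promoter table (GRCm38.p6): C1qb, C1qc, Cd68, Lyz2, Mrc1 and Trem2. Csf1r was left out of the search, and Adgre1, C1qa and Tyrobp were not searched either. The shares below therefore describe the 6 genes searched and not the whole panel. The PU box GAGGAA, a core of sites for PU.1, the factor that sets the myeloid lineage, was searched on both strands and was found in 5 of the 6, against 23.3% of all 32851 promoter windows. Lyz2 had no match. An interferon response motif, GAAA repeated after a gap of 2 bases (2.98% of all windows), and the E-box CACGTG (6.02%) were found in 0 of the 6. No other motif overlapped the PU boxes, and a match is a description of letters, not of binding. The windows of C1qb (chr4:136886201-136886450), Cd68 (chr11:69666171-69666420) and Trem2 (chr17:48346151-48346400) are printed because they stand for the secreted, lysosomal and receptor genes and lie wholly outside the GENCODE gene bodies. The first and second are on the minus strand and the third on the plus strand, all 5′ to 3′ and ending at the base before the start, with the PU box in capitals (TTCCTC where it lies on the opposite strand).
C1qb: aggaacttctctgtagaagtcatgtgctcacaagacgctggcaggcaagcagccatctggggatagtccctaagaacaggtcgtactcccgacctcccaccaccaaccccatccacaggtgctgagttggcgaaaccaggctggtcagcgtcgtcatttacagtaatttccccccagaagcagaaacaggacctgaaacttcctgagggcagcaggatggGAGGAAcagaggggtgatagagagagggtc
Cd68: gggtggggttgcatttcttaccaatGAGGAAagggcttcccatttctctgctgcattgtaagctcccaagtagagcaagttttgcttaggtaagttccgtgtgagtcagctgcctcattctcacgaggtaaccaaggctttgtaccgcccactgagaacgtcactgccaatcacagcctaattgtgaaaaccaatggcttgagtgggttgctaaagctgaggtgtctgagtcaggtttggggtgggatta
Trem2: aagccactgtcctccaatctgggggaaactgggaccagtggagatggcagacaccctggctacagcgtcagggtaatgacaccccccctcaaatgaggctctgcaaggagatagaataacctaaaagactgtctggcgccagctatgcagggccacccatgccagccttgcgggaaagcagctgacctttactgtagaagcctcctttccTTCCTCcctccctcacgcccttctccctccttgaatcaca
The PU box began 30 bases before the start in C1qb, 225 in Cd68 and 40 in Trem2. Genes with a match include C1qb and Cd68, whose log2 fold changes were -0.93 and -0.23.

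Trem2, a receptor for lipids and apolipoproteins on macrophages, was at the limit of counting. It had 28 counts over the 6 IgG libraries, from 1 to 10 per library, and 6 over the 6 anti-CD3 libraries, 5 of them in anti-CD3 6 and 1 in anti-CD3 4. It was left out by the filter on low counts and was not tested. A gene with 0 counts in a library is still compatible with up to 3 counts there.

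Tyrobp encodes DAP12, the ITAM adaptor through which TREM2 and several receptors of macrophages, neutrophils and natural killer cells signal. Its normalized count was 9.0 to 253 in IgG (median 58.6) and 10.9 to 86.6 in anti-CD3 (median 18.9), the largest relative gap between medians of the 9 genes. Anti-CD3 1 and anti-CD3 6 were at 86.6 and 71.4, while the other 4 anti-CD3 libraries were between 10.9 and 25.1. The log2 fold change was -1.27 ± 0.72 (SE over 6 libraries per arm; 95% interval -2.84 to 0.30; edgeR adjusted p = 0.364), and -0.52 ± 0.66 (SE) without IgG 6. Natural killer cell markers gave a summed 1.15 to 18.6 CPM in IgG and 0.335 to 7.80 in anti-CD3, with 1 of 4 tested (Klrk1, at -0.51), and their part in Tyrobp was not tested.

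**Figure D2:**
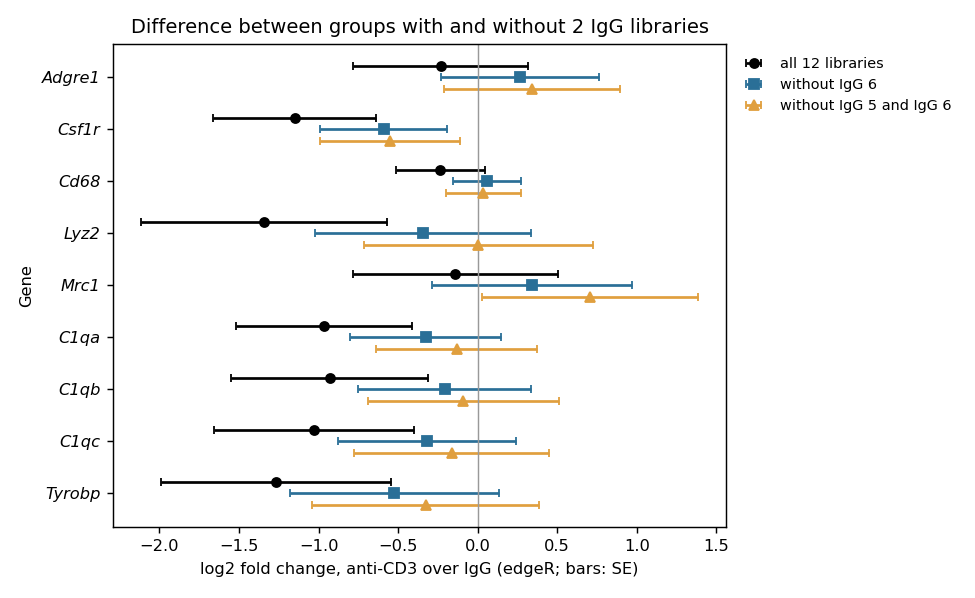
Difference between anti-CD3 and IgG, as log2 fold change, for each of the 9 genes (edgeR, bars are SE) with all 12 libraries (black), without IgG 6 (blue) and without IgG 5 and IgG 6 (yellow). Csf1r stays near -0.55 without both libraries, while Adgre1, Cd68, Mrc1 and Lyz2 are at or above 0.

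Compared per length of exon, so that genes can be set side by side, the levels covered more than 2 orders of magnitude. The mean deposited normalized count per kilobase over the 12 libraries was 774 for Lyz2, 369 for C1qa, 178 for C1qb, 142 for Cd68, 90.2 for Tyrobp, 88.1 for C1qc, 15.1 for Csf1r, 14.5 for Adgre1 and 2.77 for Mrc1. Lyz2 and C1qa, which encode secreted products, stood at the top. The place of C1qc, also secreted, depends on the length used. Its exons span 1931 bases together, and its longest protein-coding transcript 1203. The surface receptors Csf1r, Adgre1 and Mrc1 had the lowest levels. C1qa was above C1qb in 12 of 12 libraries and C1qc above Csf1r in 12 of 12. Neighbours that did not separate were C1qb and Cd68 (C1qb higher in 7 of 12 libraries), Tyrobp and C1qc (8 of 12), and Csf1r and Adgre1 (7 of 12). Lengths are the union of all annotated exons, which understates the level of genes with long exons that are little used.

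**Figure D3:**
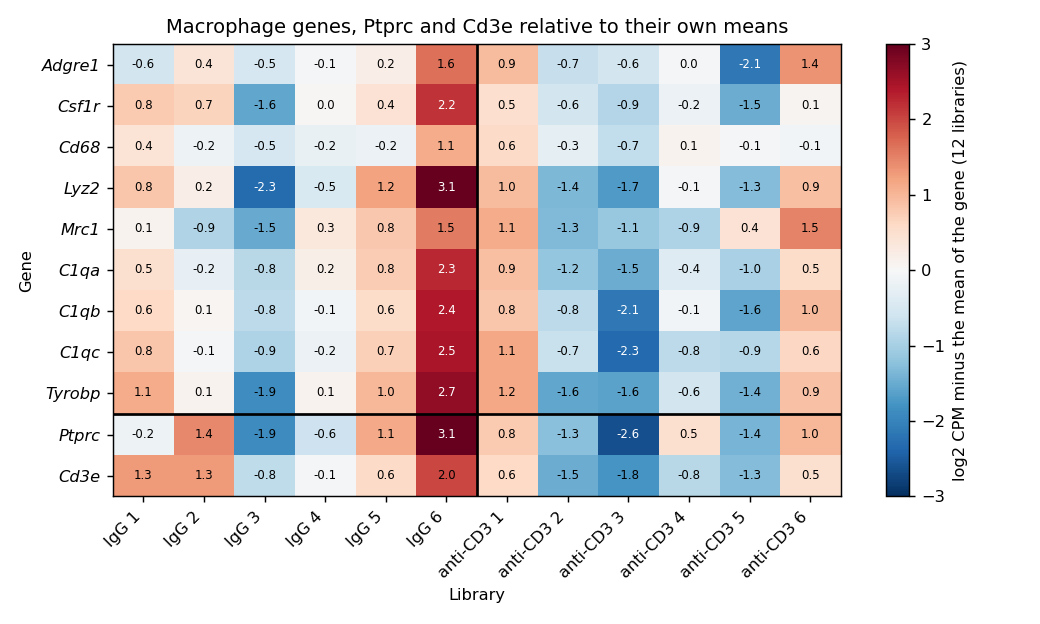
log2 CPM of the 9 macrophage genes, of Ptprc and of the T cell gene Cd3e in each library, each gene less its own mean over the 12 libraries. IgG 6 has the highest value of the 12 libraries in all 9 macrophage rows, and IgG 3 and anti-CD3 3 have a median rank of 11.

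The macrophage genes varied along with leukocyte content, with exceptions in single IgG libraries. IgG 6 and anti-CD3 3 were the highest and the lowest of the 12 libraries for Ptprc, with 2339 and 41.3 normalized counts, and their panel genes took a median rank of 1 and 11. IgG 2 was second for Ptprc, at 729, but had a median rank of 6 over the panel. IgG 1 was only seventh for Ptprc, at 243, with a median panel rank of 4. Markers of T cells (6 of 6 genes negative, median -1.21), B cells (4 of 4, median -1.34) and dendritic cells (5 of 5, median -0.43) had negative values too, with 0 called by edgeR (2 T cell genes and 0 of the others at an unadjusted p under 0.05) and 0 by DESeq2. The summed CPM of T cell markers was 4.22 to 117 in IgG and 2.60 to 34.0 in anti-CD3, and that of B cell markers 1.69 to 99.3 and 0.754 to 24.4. Stromal markers were negative for 7 of 7 genes (median -0.97), of which 4 had an unadjusted edgeR p under 0.05, against 8.68% of all genes on the lower side, and DESeq2 called 2, against 1.22%. All 25 acinar genes were positive (median 0.68), of which 8 had an unadjusted edgeR p under 0.05, against 9.68% on the higher side. DESeq2 called 1 of the 25, near the 3.96% that it called over all genes in either direction. Endocrine markers were negative for 4 of 7 (median -0.10). Every marker list named here except the acinar and endocrine ones peaked in IgG 6, and no marker of these lists had 0 counts over all libraries. The part of these cell types in the panel's values was not tested.

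Ratios within a library ask whether the macrophage genes changed against each other or against lymphocytes. They depend on how libraries are scaled only through the prior count, which weighs most on genes with few counts, such as Trem2 and Mrc1. In 5 ratios compared, 0 differed between groups (exact permutation test over all regroupings of the libraries, two-sided, Benjamini-Hochberg over the 5). C1qa to Csf1r averaged 2.09 ± 0.56 on the log2 scale in IgG against 2.07 ± 0.54 in anti-CD3 (SD over 6 libraries per arm; two-sided exact permutation test, p = 0.972, adjusted p = 0.972). Mrc1 to Adgre1 was -1.52 ± 0.85 and -1.26 ± 1.27 (SD over 6 libraries per arm; two-sided exact permutation test, p = 0.736, adjusted p = 0.972), with anti-CD3 5 alone above 0, at 1.18, from 13 and 5 counts. Csf1r to Ptprc, the macrophage receptor against all leukocytes, was -2.06 ± 0.81 and -1.90 ± 1.00 (SD over 6 libraries per arm; two-sided exact permutation test, p = 0.766, adjusted p = 0.972). Trem2 to Tyrobp was -3.52 ± 1.31 and -3.45 ± 1.06 (SD over 6 libraries per arm; two-sided exact permutation test, p = 0.924, adjusted p = 0.972), a value set by the prior count of 2, since it was -0.92 as a difference with a prior count of 0.5.

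Csf1r was also set against Cd3e, a chain of the complex that the antibody binds. Cd3e itself had a median normalized count of 67.2 in IgG and 15.5 in anti-CD3, from 7 to 36 counts in an anti-CD3 library. The log2 ratio averaged 0.66 ± 0.40 in IgG against 1.25 ± 0.60 in anti-CD3 (SD over 6 libraries per arm), a difference of 0.59 (exact permutation p = 0.0801, adjusted p = 0.400). The IgG libraries lay between 0.15 and 1.12 and the anti-CD3 libraries between 0.54 and 1.89, with anti-CD3 2, anti-CD3 3 and anti-CD3 4 above every IgG library. The difference was between 0.46 and 0.73 when 1 library was left out, and 0.68 without IgG 6. Its unadjusted exact permutation p ran from 0.0411, without anti-CD3 6, to 0.25 over the alternatives, and the lowest adjusted p was 0.206.

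**Figure D4:**
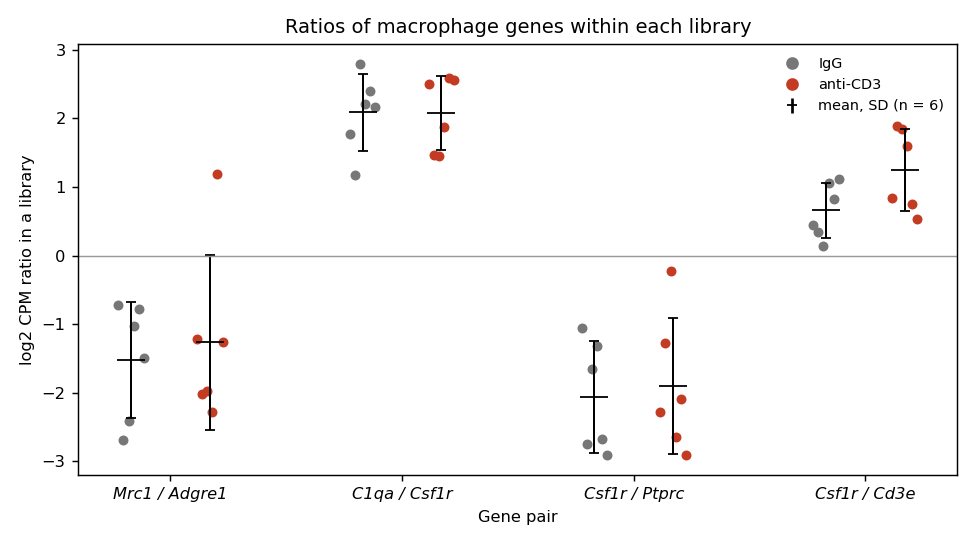
log2 ratio of CPM for 4 gene pairs in each library, with IgG in grey, anti-CD3 in red and black marks for the mean and SD (n = 6). The groups overlap for every pair, and the means of the Csf1r to Cd3e ratio lie 0.59 apart.

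The other genes around the panel were read from 7 lists of 83 genes, of which 67 were tested. None passed edgeR over all genes tested or DESeq2, 5 were lower and 1 was higher at an unadjusted p under 0.05 (7.46% of the 67 lower, against 8.68% of all genes), and 56 had negative values. Without IgG 6, a setting added for these lists after the data were seen, 40 of the 67 were negative, and without IgG 5 and IgG 6, added likewise, 27 of the 67.

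Among 8 ligands of the CSF1 receptor and transcription factors of the lineage, 7 were negative, with a median of -0.71. Without IgG 6, 8 of 8 were negative with a median of -0.25, and without IgG 5 and IgG 6, 6 of 8 with a median of -0.22. Csf1, the main ligand, was at -0.76 ± 0.24 (SE over 6 libraries per arm; edgeR, adjusted p = 0.136), with 272 to 715 normalized counts in IgG and 142 to 353 in anti-CD3, and at -0.57 without IgG 6 and -0.47 without IgG 5 and IgG 6. Runx1, a factor of blood cell development, was at -0.66 ± 0.23 (SE) and at -0.51 without IgG 6. Irf8, a factor of monocytes, dendritic cells and B cells, was at -1.30 ± 0.69 (SE), and at -0.26 without IgG 6. Of the 2 ligands, Il34 was at -0.57 ± 0.42 (SE) and close to 0, at -0.04, without IgG 6.

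Of 11 complement genes around C1q, 10 were negative, with a median of -0.80, and 8 were negative without IgG 6, with a median of -0.15. Serping1, the C1 inhibitor that blocks the proteases bound to C1q, was at -0.92 ± 0.40 (SE over 6 libraries per arm; edgeR, adjusted p = 0.25), and at -0.58 without IgG 6. C4b, a substrate of those proteases, was at -1.01 ± 0.54 (SE) and Cfb, a protease of the alternative pathway, at -1.04 ± 0.63 (SE), and without IgG 6 they were at -0.40 and -0.10. Of 10 tested genes around TREM2 and TYROBP, 7 were negative, with a median of -0.60, and 5 without IgG 6, with a median of 0.05. The signalling genes Syk, Plcg2 and Inpp5d, which B cells also use, were at -1.13 ± 0.63, -0.71 ± 0.37 and -1.02 ± 0.59 (SE), and at -0.34, -0.20 and -0.47 without IgG 6.

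Lysosomal genes, which all cells use to some degree, had the median nearest 0 of the 7 lists, with 9 of 13 negative, a median of -0.21, and with a median of -0.02 without IgG 6. Psap, the precursor of saposins, was at -0.71 ± 0.23 (SE over 6 libraries per arm; edgeR, adjusted p = 0.144), and at -0.46 without IgG 6. Lamp2, a lysosomal membrane protein, was at 0.36 ± 0.17 (SE), the 1 gene of the 67 that was higher at an unadjusted p under 0.05, and Ctsb, a cathepsin, at 0.27 ± 0.15 (SE). Both stayed positive without IgG 6, at 0.46 and 0.32.

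Resident-type markers were mostly at the limit of counting. Of 13, 4 were tested, with a median of -0.88 and 3 negative. Lyve1, which also marks lymphatic vessels, was at -1.32 ± 0.63, Stab1, a scavenger receptor, at -0.63 ± 0.35, and Timd4, a receptor for dying cells, at -1.12 ± 0.79 (SE over 6 libraries per arm). Without IgG 6 they were at -0.55, -0.41 and -0.28. Cd163 had 9 counts over the 12 libraries, Folr2 39 and Vsig4 0.

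All 12 tested genes among other myeloid surface markers were negative, with a median of -0.72, and 7 of the 12 without IgG 6, with a median of -0.11. Itgax, the integrin CD11c of islet macrophages and dendritic cells, was at -1.60 ± 0.57 (SE over 6 libraries per arm; edgeR, adjusted p = 0.181), the most negative value of the 7 lists. It ran from 33.8 to 338 normalized counts in IgG, and in anti-CD3 from 14.6 to 88.9, and was at -1.01 without IgG 6 and -0.70 without IgG 5 and IgG 6. Mertk, a receptor for apoptotic cells, was at -0.85 ± 0.49 (SE), and Ccr2, the chemokine receptor of recruited monocytes, at -1.03 ± 0.71 (SE), with -0.38 and -0.23 without IgG 6.

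Inflammatory mediators had 8 of 9 negative values with a median of -0.35, and 2 of 9 negative without IgG 6, with a median of 0.23. Nlrp3, the inflammasome sensor, was at -0.91 ± 0.50, Il1rn, the interleukin 1 receptor antagonist, at -0.60 ± 0.45, and Nos2, inducible nitric oxide synthase, at -0.79 ± 0.82 (SE over 6 libraries per arm). Without IgG 6 they were at -0.45, -0.14 and 0.22.

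**Figure D5:**
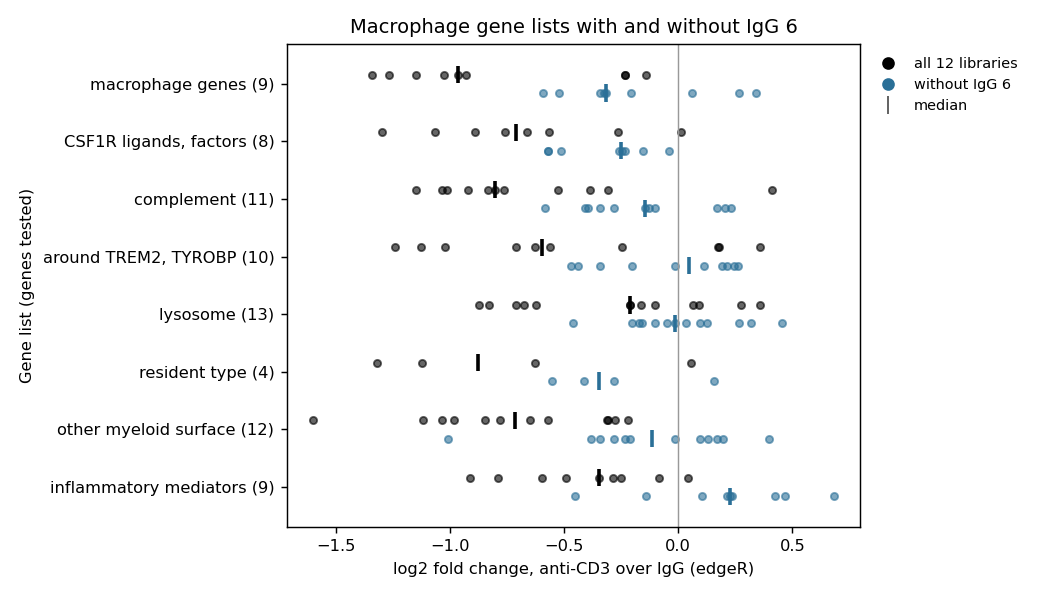
Difference between anti-CD3 and IgG, as log2 fold change (edgeR), for each tested gene of the panel and of the 7 lists, with all 12 libraries (black) and without IgG 6 (blue), and a bar at each median. Medians run from -0.96 to -0.21 with all libraries and from -0.35 to 0.23 without IgG 6.

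The 8 genes most like the panel over the 12 libraries were Ctss, H2-Ab1, H2-Aa, B2m, Dcn, Fstl1, H2-Eb1 and Cd74. Likeness was Spearman's rho between a gene's log2 CPM and the mean of the 9 panel genes, each centred on its own mean, over 10522 candidate genes with a median rho of -0.13. Ctss, a cathepsin that cleaves the invariant chain, and the class II chains H2-Ab1 and H2-Aa each reached 0.993, and H2-Eb1 and the invariant chain Cd74 reached 0.972. B2m, the light chain of MHC class I, was at 0.986, as were Dcn and Fstl1, secreted proteins of fibroblasts. The same 8 genes led without IgG 6, over 11 libraries, with rho of 0.964 to 0.991. IgG 6 held the top rank of the panel, and a rank correlation takes no account of how far above the rest it stood. Leaving it out could therefore change these rho values little, and the repeat is not a separate check of the likeness. Ptprc was at 0.874 and Cd3e at 0.839. All these genes were read in the same libraries, which differed in leukocyte, stromal and acinar content. The likeness describes that variation as well. None of the 8 genes was called, with log2 fold changes from -1.11 for Cd74 to -0.25 for Dcn.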

How the data were processed

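RNA of 12 islet samples was sequenced. The authors deposited whole-number counts for each Ensembl gene. Their deposited comparison table gives a normalized signal, which equals the count over a size factor constant within a library, beside a log2 fold change and p-values. Trimmomatic 0.36, STAR 2.5.2b, featureCounts of Subread 1.5.2, DESeq2 and GRCm38 are named in the submitters' processing notes, without options. Columns were matched to samples by group and number, and 0 such columns remained without a sample. The count column of anti-CD3 5 was headed added-CD3-5, unlike the others, for a reason the labels do not give.

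Groups came from sample titles. Counts were tested in R 4.3.3 with edgeR 4.0.16 (quasi-likelihood, robust, TMM, filterByExpr with a minimum count of 10 and a minimum total of 15, Benjamini-Hochberg over all genes at 0.05, two-sided). Each SE is the fold change over the root of its F statistic, and 95% intervals from the SE and the test's degrees of freedom. Log2 CPM used a prior count of 2. Positions and exon lengths came from GENCODE M21 (GRCm38), which held 49056 of the 49315 gene IDs. Alternatives were DESeq2 1.42.0, limma 3.58.1 (voom), other scaling factors and filters, covariates, a length offset, the replicate number as a block, and libraries left out. The procedure was tested on simulated data.

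The panel, gene lists, ratios and left-out libraries were chosen with earlier results of these data known. Named genes were the panel, Ptprc, the 3 genes of each list with the smallest p and the 8 genes most like the panel. Il34, Cd163, Folr2, Vsig4, Lyz1, Cd3e, Csf3r and Klrk1 were named in addition.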

Additional observations from a re-analysis of the deposited data

Results flagged for a closer look

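A library was singled out when its gap to the nearest other library of its group exceeded 0.625 of the group's range (Dixon's 95% value for 6 samples). Chance gives this in about 5% of groups of normally distributed values. The normalized counts were taken without a log and are skewed, so that share does not hold for them. The rule was met in 10 of 30 sets of values, 8 of them from IgG 6, and was not applied to log values of these genes. In IgG 6 the normalized count was 123 for Adgre1 (next highest IgG library 49.4), 312 for Csf1r (117), 5144 for Lyz2 (1349), 1415 for C1qa (490), 751 for C1qb (210), 669 for C1qc (214), 253 for Tyrobp (84.0) and 2339 for Ptprc (729). These genes are not independent, since they share the library, which also had the lowest acinar share, 32.3%.

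The log2 ratio of Mrc1 to Adgre1 was 1.18 in anti-CD3 5, with the next at -1.22, and that of Trem2 to Tyrobp was -5.60 in anti-CD3 1, with the next at -3.33, where Trem2 had 0 counts.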

How the results depend on the processing

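Of 225 values of single panel genes under alternatives, 0 passed and 203 kept their sign. The number of panel genes called stayed at 0 in every setting, and their median was -1.31 to -0.32 with 1 library left out and 0.27 with an acinar covariate. That covariate gave 0.55 for Adgre1, 0.27 for Cd68, 0.66 for Lyz2, 0.18 for C1qa, 0.31 for C1qb, 0.26 for C1qc, 0.82 for Mrc1 and 0.14 for Tyrobp. With Ptprc as a covariate Adgre1 was at 0.31, Cd68 at 0.060 and Mrc1 at 0.47, and with limma-voom Cd68 was at 0.033. Without IgG 5 and IgG 6 Adgre1 was at 0.34, Cd68 at 0.035, Lyz2 at 0.0044 and Mrc1 at 0.71. With 1 library left out Adgre1 ran from -0.65 to 0.27, Cd68 from -0.38 to 0.058 and Mrc1 from -0.60 to 0.34. The cause was not tested.

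The number of all genes called was 10 as reported, 469 with DESeq2, 135 with limma-voom, 6 with upper-quartile factors, 167 with no filter, 5 without robust estimation, 181 with the Ptprc covariate, 4 with the length offset, 0 with the acinar covariate, 1 without IgG 5 and IgG 6, and 0 to 203 with 1 library left out (203 without anti-CD3 2). With the replicate number as a block it was 0, the panel's median was -0.87, and 5 of the 9 panel genes had an unadjusted p under 0.05 (lowest edgeR adjusted p = 0.131). The share of all genes under that threshold in the blocked fit was not worked out, so this count is not a result about the panel. The numbers were not taken to pair the libraries, since same-numbered libraries correlated over 0.1 in 3 of 6 pairs and 2 of 6 correlated best with their own number, which does not show that they are unpaired. The length offset moved the panel's median to -1.28, with Tyrobp at -1.84 and Cd68 at -0.56.

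With 1 library left out, the ratio difference ran from -0.20 to 0.13 for C1qa to Csf1r, from -0.18 to 0.36 for Csf1r to Ptprc, from -0.23 to 0.46 for Mrc1 to Adgre1 and from -0.32 to 0.50 for Trem2 to Tyrobp. With medians it was -0.36 for Mrc1 to Adgre1 and -0.017 for Csf1r to Ptprc. Without IgG 5 and IgG 6 it was 0.087 for C1qa to Csf1r, -0.59 for Trem2 to Tyrobp and -0.21 for Csf1r to Ptprc, and with a prior count of 0.5 it was -0.92 for Trem2 to Tyrobp. Depth limits Trem2 and Mrc1 most, with at most 10 and 107 counts in a library.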

Other observations

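Set against Cd3e in the same library, all 9 panel genes had higher log2 ratios in anti-CD3, by 0.39 for Tyrobp to 1.31 for Mrc1, and all 9 also without IgG 6. These differences share 1 denominator and were not tested as a set. Cd3e itself had a median normalized count of 67.2 in IgG and 15.5 in anti-CD3. A higher ratio is therefore not a rise of the panel genes, and all 9 had negative log2 fold changes. Cd68 to Cd3e was 1.61 ± 0.60 in IgG and 2.88 ± 0.75 in anti-CD3, and Adgre1 to Cd3e was -0.39 ± 0.75 and 0.67 ± 0.73 (SD over 6 libraries per arm). C1qa to Cd3e was 3.32 ± 0.12 in anti-CD3 and 2.75 ± 0.73 in IgG (SD over 6 libraries per arm). It was singled out for the smallest SD of these ratios. With 7 to 36 counts of Cd3e in an anti-CD3 library, so small an SD cannot show a constant ratio. C1qa itself varied 5.51-fold between anti-CD3 libraries. Set against Ptprc, 8 of the 9 were higher in anti-CD3, and 4 of the 9 without IgG 6, with medians of 0.14 and -0.01.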
